A study of Saccharomyces cerevisiae with 39 samples.

Results

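BDH1 (YAL060W) and BDH2 (YAL061W) are neighbouring, related genes of Saccharomyces cerevisiae, and they are 2 of the 6420 features in the count table. They were taken by their systematic names, as a pair of paralogs chosen by the measured early rise of the BDH2 counts after Abf1 depletion, a value from these same libraries. The Abf1 time course of the pair is therefore given as a description without a test. The experiment followed newly made RNA over 39 libraries in 13 groups of 3. Of these, 33 libraries came from an Abf1 anchor-away strain (Abf1 groups), sampled at 11 times that ran every 5 min up to 20 min, every 10 min up to 60 min and then at 75 and 90 min, and 6 came from the untagged parental strain at 90 and 0 min (WT groups). Both strains were haploid BY4742 MATalpha cells carrying tor1-1, a deletion of FPR1 and the RPL13A-FKBP12-NAT anchor, and the Abf1 strain in addition carried Abf1-FRB-yEGFP-3V5-hphMX4 at the native gene. Rapamycin (7.5 µM) tethers the tagged Abf1 to ribosomal protein precursors that leave the nucleus, while cells of the 0 min groups of both strains were kept in the solvent DMSO for 90 min. RNA was labelled with 5 mM 4-thiouracil for 6 min before harvest, so each value is an average over that window. The study's methods describe the 3 libraries of a group as biological replicates.

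Bdh1 is the NAD-dependent butanediol dehydrogenase that interconverts acetoin and butanediol. Acetoin arises as a side product of pyruvate decarboxylation, so the reaction lies on a branch off the route to ethanol. Bdh2 is a much less characterised relative of the same family, the medium-chain dehydrogenases, which also includes the alcohol dehydrogenases of fermentation. Abf1 is an essential general regulatory factor that binds promoters, keeps them free of nucleosomes and can also separate neighbouring transcription units.

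In RefSeq R64, the assembly distributed as sacCer3, both genes lie on the plus strand of chromosome I, each as 1 protein-coding gene. BDH2 occupies 33448 to 34701 (1254 bp of coding length) and BDH1 lies downstream of it, at 35155 to 36303 (1149 bp), so that 453 bp separate them. GDH3, a glutamate dehydrogenase gene at 31567 to 32940, lies 507 bp upstream of BDH2. ECM1, which encodes a factor for export of the large ribosomal subunit, lies 205 bp downstream of BDH1 at 36509 to 37147. No other RefSeq gene overlaps either member (0 for each). The count table itself holds no coordinates.

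The coding sequences aligned with 57.6% identity (659 of 1144 aligned bases) and shared no exact run longer than 11 bases, which bears on whether sequence reads of one gene could be counted for the other. The first 60 coding bases are shown because they show how the genes resemble each other and differ from the start codon on, with the bases identical at the same position in capitals (37 of 60).
BDH2, chrI:33448-33507, plus strand: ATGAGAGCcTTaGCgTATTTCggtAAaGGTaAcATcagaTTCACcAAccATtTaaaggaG
BDH1, chrI:35155-35214, plus strand: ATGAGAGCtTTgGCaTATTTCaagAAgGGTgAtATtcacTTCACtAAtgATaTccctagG
After the first 8 bases, identical and differing bases were mixed along the stretch, in runs of unequal length.

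The upstream sequences are shown because the members differed over time while lying side by side. Each run covers bases 250 to 101 before the start codon in R64, with the letters of TATAAA, the core of a TATA element, in capitals.
BDH2, chrI:33198-33347, plus strand: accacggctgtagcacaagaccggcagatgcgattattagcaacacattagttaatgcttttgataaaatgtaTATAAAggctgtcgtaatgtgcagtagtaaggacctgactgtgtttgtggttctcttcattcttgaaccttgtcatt
BDH1, chrI:34905-35054, plus strand: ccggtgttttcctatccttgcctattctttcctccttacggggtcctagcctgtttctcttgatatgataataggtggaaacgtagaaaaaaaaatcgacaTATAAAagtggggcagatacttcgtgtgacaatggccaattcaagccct
TATAAA began 177 bases before the start codon of BDH2 and 149 bases before that of BDH1, and it was chosen after the sequences had been seen. Over 250 bases before to 50 bases after the start codon, on either strand, 45.4% of 6020 protein-coding genes held TATAAA. The same window of both members held no match to either form searched of the Abf1 motif, TCANNNNNNACG (held by 14.3% of the genes) and TCGNNNNNNACG (6.06%), nor to the Pdr1/Pdr3 motif TCCGNGGA (1.21%). It also held no match to the stress element AGGGG of Msn2/Msn4 (21.6%), to TTAGTAA of Yap1 (7.49%) or to TTACCCG of Reb1 (7.06%). These counts describe letters in a window and say nothing of binding. Sequence further than 250 bases before the start codon was not searched. The gaps to the next gene upstream are longer, at 507 bp for BDH2 and 453 bp for BDH1.

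Library totals ranged over 3500982 to 11266408 counts (median 5467295), and the features tested (5722 of 6420, both members included) held 99.99% of them. FPR1 had 0 counts in all 39 libraries. ABF1 averaged 732 ± 64.9 CPM in Abf1 cells at 0 min and 367 ± 19.8 CPM in WT cells at 0 min (SD, n = 3 each). The alpha-cell genes were present (4 of 4), with a summed level of 673 to 2160 CPM in Abf1 cells at 90 min, 1332 to 3344 CPM in Abf1 cells at 0 min, 2278 to 2527 CPM in WT cells at 90 min and 2092 to 2246 CPM in WT cells at 0 min. Of the 5 a-cell genes, MFA1, MFA2 and AGA2 had at most 8, 9 and 3 counts in any library, whereas STE2 had 17 to 75 counts and BAR1 3 to 48 counts. The summed level of the 5 was 6.07 to 14.9 CPM over all libraries. CPM here is a count scaled to the library's total after adjustment by the trimmed mean of M-values, so a value is a share of the labelled RNA. Without a spike-in, a general fall in labelled RNA, through fewer cells or less RNA per cell, does not show in these values. The share of a gene can then rise without more RNA being made from it.

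BDH2 was at its lowest Abf1 level at 0 min, where it had 28.3, 29.5 and 23.0 CPM in replicates 1, 2 and 3. At 5 min it stood at 48.5, 61.1 and 44.4 CPM, and at 10 min at 54.4, 79.8 and 61.1 CPM. Every library of both groups lay above every 0 min library. At 15 min the 3 values were 47.1, 61.7 and 39.8 CPM, and at 20 min they were 46.1, 60.1 and 39.8 CPM. At 30 min they were 46.2, 54.7 and 46.3 CPM, at 40 min 43.7, 56.9 and 43.3 CPM and at 50 min 45.7, 62.9 and 44.7 CPM. The level thus stayed between 39.8 and 62.9 CPM over 15 to 50 min. The values were 46.0, 57.0 and 41.4 CPM at 60 min, 40.3, 60.5 and 44.2 CPM at 75 min and 43.8, 50.2 and 38.3 CPM at 90 min. WT cells had 14.3, 15.8 and 20.6 CPM at 90 min and 15.2, 18.7 and 14.7 CPM at 0 min. All 10 depleted groups lay above both the Abf1 0 min and the WT libraries without overlap, and replicate 2 was the highest of its group in every Abf1 group. The share of all features that separate in this way was not computed, so how rare the separation is was not tested. A different measure is the share of all 5722 features called higher against Abf1 0 min. It was 0% for the first depleted group, then 0.245%, 0.315%, 0.629%, 1.26%, 1.49%, 2.66%, 2.74%, 4.74% and, for the 90 min group, 6.26%. At an unadjusted edgeR p under 0.05, 196 features were higher at 5 min and 445 at 10 min. A feature was called where the adjusted p of edgeR's quasi-likelihood test was under 0.01 and the fold change over 1.5. The counts behind these BDH2 values ranged over 72 to 684 per library.

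**Figure D1:**
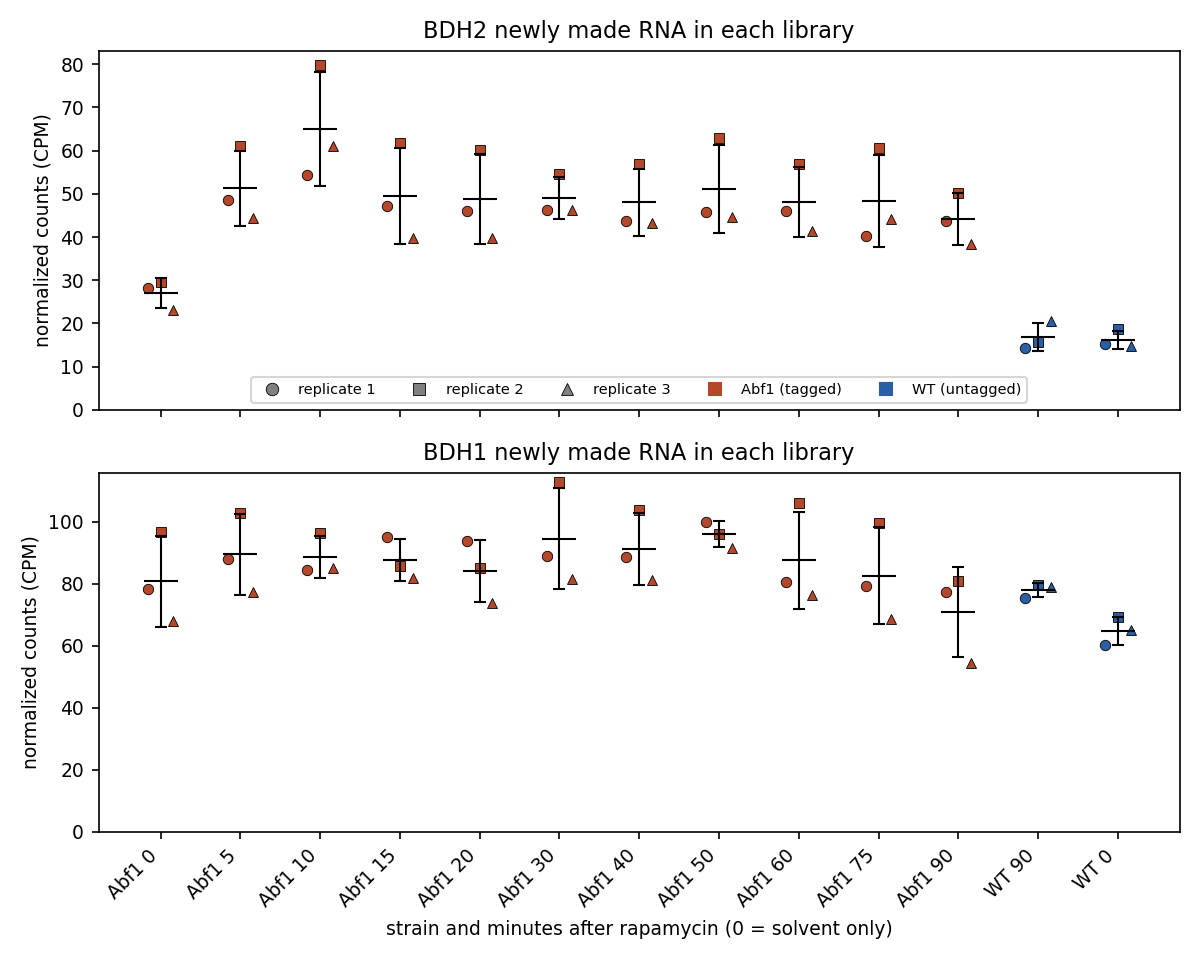
Normalised counts (CPM) of BDH2 (upper panel) and BDH1 (lower panel) in each library, by strain and minutes after rapamycin; symbols mark the replicate number, horizontal bars the group mean and error bars the SD of 3 libraries. BDH2 averaged 65.1 CPM at 10 min and 27.0 CPM at 0 min in Abf1 cells and lay at or under 20.6 CPM in every WT library, whereas BDH1 groups of the Abf1 strain all overlapped the 0 min group.

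BDH1, the butanediol dehydrogenase itself, had 78.2, 96.8 and 67.9 CPM at 0 min in replicates 1, 2 and 3 of the Abf1 strain. It had 88.1, 103 and 77.3 CPM at 5 min and 84.6, 96.4 and 85.1 CPM at 10 min, so both groups overlapped the 0 min libraries. The values were 95.3, 85.8 and 82.0 CPM at 15 min and 93.8, 85.1 and 73.7 CPM at 20 min. At 30 min they were 89.1, 113 and 81.6 CPM, at 40 min 88.7, 104 and 81.2 CPM and at 50 min 100, 96.2 and 91.7 CPM. All of these again overlapped the 0 min group. At 60 min BDH1 had 80.7, 106 and 76.5 CPM, at 75 min 79.3, 99.6 and 68.8 CPM and at 90 min 77.5, 80.9 and 54.4 CPM. WT cells had 75.5, 79.7 and 78.9 CPM at 90 min and 60.3, 69.2 and 65.0 CPM at 0 min, and these WT groups did not overlap each other. The 90 min Abf1 group included the lowest of all 39 BDH1 values. Counts of BDH1 ranged over 189 to 953 per library.

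In the order of group means, BDH2 was highest in Abf1 cells at 10 min (65.1 ± 13.2 CPM), followed by 5 min (51.3 ± 8.69), 50 min (51.1 ± 10.2), 15 min (49.5 ± 11.2), 30 min (49.1 ± 4.85), 20 min (48.7 ± 10.4), 75 min (48.3 ± 10.7), 60 min (48.1 ± 8.0), 40 min (48.0 ± 7.76) and 90 min (44.1 ± 5.98). Each of these neighbours in the order overlapped the next. Abf1 cells at 0 min came below them (27.0 ± 3.45 CPM), then WT cells at 90 min (16.9 ± 3.28 CPM) and at 0 min (16.2 ± 2.16 CPM). Only 2 steps of the order separated without overlap, between Abf1 90 and 0 min and between Abf1 0 min and WT 90 min. For BDH1 every neighbour in the order overlapped the next, with means between 96.0 ± 4.17 CPM in Abf1 cells at 50 min and 64.8 ± 4.46 CPM in WT cells at 0 min.

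Against Abf1 0 min, the log2 fold change of BDH2 was 0.92 (SE 0.20) at 5 min and 1.27 (SE 0.20) at 10 min, or 2.41-fold. It lay between 0.83 and 0.92 over 15 to 75 min, and the last value was 0.71 (SE 0.20). Of the 5722 features tested, 12 had a larger fold change than BDH2 at 5 min, and 18 did so at 10 min. The number was 28 by 15 min and 45 by 20 min, and it reached 464 by 90 min. The pair was chosen by the early rise of BDH2, so its high early rank follows from that choice. Many more features passed it later, while the spread of all features widened. The highest 5% of features started at 0.348 at 5 min and at 0.888 at 90 min. BDH1 stood at 0.14 (SE 0.16) after 5 min with 1188 features above it. Its values were 0.13 (SE 0.16) after 10 min with 1794 features above it and −0.19 (SE 0.16) after 90 min with 4018. Its highest value in Abf1 cells was 0.25, at 50 min, and the small positive values at 10, 15, 20, 60 and 75 min turned negative under at least 1 alternative (down to −0.17, at 75 min without replicate 2 of that group). Compared within replicate numbers, BDH2 exceeded its own 0 min library in 3 of 3 replicates at every time. BDH1 did so in 3 of 3 at 5, 30, 40, 60 and 75 min and in 0 of 3 at 90 min.

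**Figure D2:**
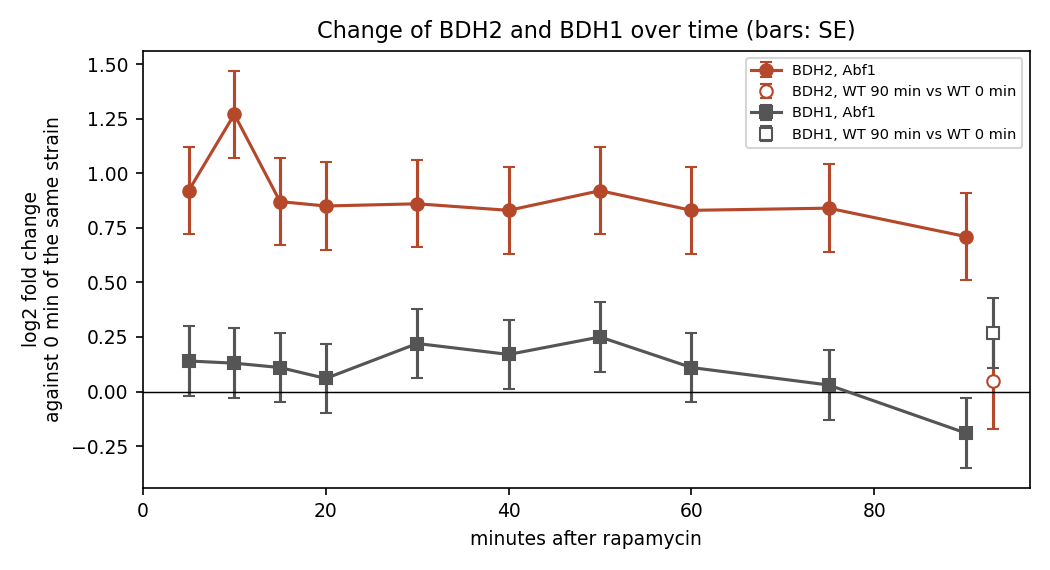
Log2 fold change of BDH2 (circles) and BDH1 (squares) against 0 min of the same strain, plotted against minutes after rapamycin, with SE bars from the model of all libraries. Filled symbols are Abf1 cells and open symbols WT cells at 90 min, drawn slightly to the right of 90 for legibility. BDH2 stood at 1.27 at 10 min and 0.71 at 90 min, and BDH1 in Abf1 cells did not pass 0.25, while BDH1 in WT cells was at 0.27.

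The exponential model that the study used for rates of change was fitted to the 33 Abf1 libraries and was accepted for neither gene. For BDH2 the rate constant came out at 3.41 per min with an SE of 2.3e+05, so it was not determined, and the pseudo-R2 was 0.358. A change within the first interval of 5 min cannot be resolved. For BDH1 the pseudo-R2 was 0.0607. No rate is reported.

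The level of BDH2 already differed between the strains before depletion. Its mean was 27.0 ± 3.45 CPM in Abf1 cells and 16.2 ± 2.16 CPM in WT cells at 0 min (SD, n = 3 each). On the log2 scale the strains differed by 0.73 (SE 0.21), with no overlap between the libraries. For BDH1 the difference was 0.32 (SE 0.16), and the libraries overlapped. Features without overlap were not counted here, and 115 of 5722 had a larger fold change than BDH2. Of all features, 0.524% were called in either direction in this comparison, which shares the Abf1 0 min libraries with the time course and was not tested for the pair.

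Rapamycin alone, in cells without the tag, was addressed only by WT cells at 90 and 0 min. The 0 min cells of both strains had 90 min in DMSO. The part of treatment length in the early Abf1 values was not tested. No WT library was taken between 0 and 90 min, so rapamycin alone was not tested at the early times of the BDH2 rise. The early rise that led to the choice of the genes was measured in Abf1 libraries. Earlier results of these data were known at that choice, so the WT tests are not fully independent of it. BDH2 averaged 16.9 ± 3.28 CPM at 90 min and 16.2 ± 2.16 CPM at 0 min, which is 0.05 on the log2 scale (SE 0.22, edgeR quasi-likelihood test, Benjamini-Hochberg adjusted p = 0.984). BDH1 averaged 78.0 ± 2.22 CPM at 90 min and 64.8 ± 4.46 CPM at 0 min, which is 0.27 on the log2 scale (SE 0.16, edgeR adjusted p = 0.679), and was higher in each of the 3 WT libraries at 90 min than in any at 0 min. How many of all features separate in this way was not counted, and 600 of 5722 had a larger fold change than BDH1. Neither member was called, and 0% of all features were. edgeR called 0 features here and DESeq2 also called 0, with 504 features at an unadjusted p under 0.05 in edgeR, whereas a fit on these 6 libraries alone called 33. The direction of the small BDH2 difference turned when replicate 3 of WT 90 min was left out (−0.11) or replicate 3 of WT 0 min (−0.02).

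After 90 min of rapamycin in both strains, BDH2 was higher in Abf1 cells and BDH1 did not pass the test. BDH2 had 43.8, 50.2 and 38.3 CPM in Abf1 cells and 14.3, 15.8 and 20.6 CPM in WT cells. The log2 fold change was 1.39 (SE 0.21, 2.63-fold, edgeR adjusted p = 2.14e-06), and all 3 Abf1 libraries lay above all 3 WT libraries. Features that separate in this way were not counted, and 2924 of 5722 were at an unadjusted edgeR p under 0.05 in either direction. BDH1 had 77.5, 80.9 and 54.4 CPM in Abf1 cells and 75.5, 79.7 and 78.9 CPM in WT cells, which is −0.13 on the log2 scale (SE 0.16, edgeR adjusted p = 0.524). With 1 of the 2 members called higher, the background is that 9.33% of all features were called higher in this comparison and 14.1% lower. This comparison uses neither the 0 min nor the early Abf1 libraries, but a level that was already raised early and then held, or that differed between the strains at 0 min, enters it as well. The alpha-cell genes summed to 673 to 2160 CPM in Abf1 cells and 2278 to 2527 CPM in WT cells in these libraries, and their part in the result was not tested.

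Since both genes were counted in the same library, their ratio needs no scaling between libraries. Per kilobase of coding length, BDH2 was below BDH1 in all 39 libraries, with a highest ratio of 0.758. The ratio of counts per kilobase averaged 0.307 ± 0.0267 in Abf1 cells at 0 min (SD, n = 3, as for the groups that follow). After 5 min it was 0.525 ± 0.0196, after 10 min 0.668 ± 0.085 and after 15 min 0.519 ± 0.122. No later mean reached the 10 min one. The means were 0.531 ± 0.103, 0.479 ± 0.0384, 0.480 ± 0.0261, 0.488 ± 0.097 and 0.504 ± 0.0157 for the groups of 20 to 60 min, and 0.537 ± 0.0636 and 0.577 ± 0.0639 for those of 75 and 90 min. WT cells had 0.198 ± 0.0358 at 90 min and 0.229 ± 0.0201 at 0 min. Every depleted group thus had a higher mean ratio than the Abf1 0 min group. In all 10 of them BDH2 lay clear of its 0 min libraries while BDH1 overlapped its own. At 90 min the mean of BDH1 was lower than at 0 min, within that overlap. In WT cells at 90 against 0 min the log2 ratio differed by −0.22 (SE 0.162, two-sided exact permutation p = 0.3). Between Abf1 and WT cells at 90 min it differed by 1.55 (SE 0.171, two-sided exact permutation p = 0.1, the smallest p that 3 against 3 libraries allow). Per kilobase, mean levels at 10 min in Abf1 cells were 51.9 CPM for BDH2 and 77.2 CPM for BDH1. The counted features were extended to published transcript starts, so the coding length stands in for their true length, and this changes the ratio by the same factor in all libraries.

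**Figure D3:**
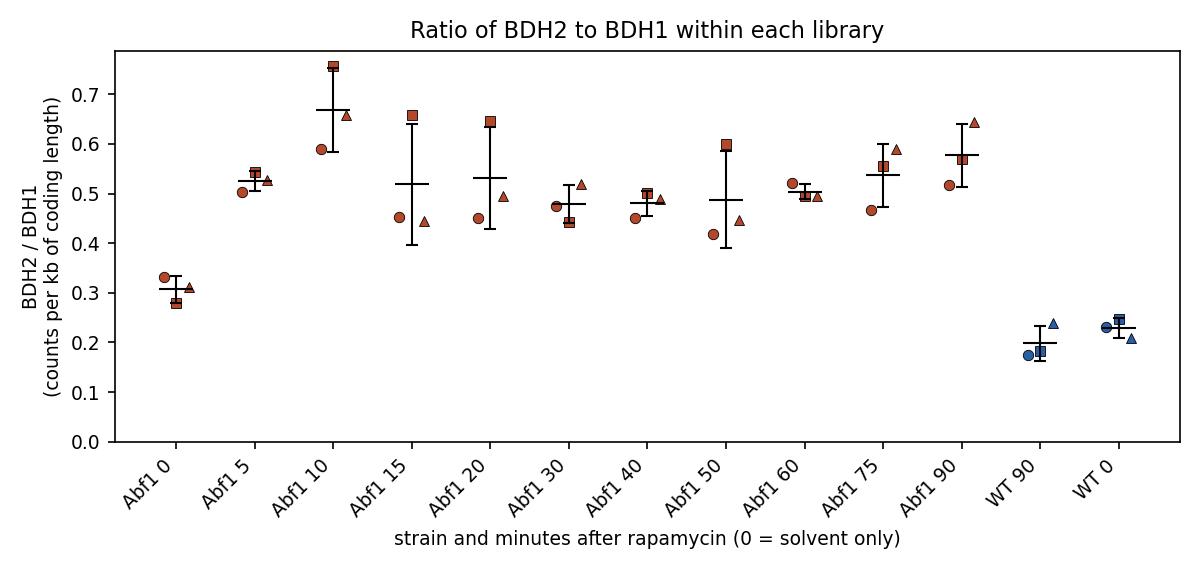
Ratio of BDH2 to BDH1, as counts per kilobase of coding length, in each library by strain and minutes after rapamycin; circles, squares and triangles are replicates 1, 2 and 3, red symbols Abf1 and blue symbols WT cells, horizontal bars the group mean and error bars the SD. The mean was 0.668 in Abf1 cells at 10 min, 0.307 at 0 min and 0.229 in WT cells at 0 min, and no library reached 1.

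None of the genes around the pair was called at 10 min. GDH3 was scarce and averaged 3.10 ± 1.79 CPM in Abf1 cells at 10 min and 2.63 ± 0.746 CPM at 0 min, with a log2 fold change of 0.26 (SE 0.57). ECM1 averaged 22.8 ± 4.18 CPM at 10 min and 22.1 ± 6.43 CPM at 0 min in Abf1 cells, a log2 fold change of 0.04 (SE 0.30). Of the 10 nearest protein-coding genes, 5 on each side, 7 passed the filter on low counts, and TDA8, YAL064W and YAL063C-A had at most 10 counts in any library. At 10 min edgeR called 0 of these 7 against Abf1 0 min, with 1 at an unadjusted p under 0.05 and 0 called by DESeq2, while 4.26% of all features were called. At 90 min 1 of 7 was called, when 17.6% of all features were. It was ACS1, an acetyl-CoA synthetase gene named after its values were seen, which had 18.7 ± 7.06 CPM in the 90 min group and 7.71 ± 1.85 CPM in the 0 min group (log2 fold change 1.28, SE 0.38, edgeR adjusted p = 0.0082). The ACS1 call was lost when only those 6 libraries were fitted, and 0 of 7 were called without replicate 1, 2 or 3 of the 0 min group or without replicate 2 or 3 of the 90 min group, while 2 were without replicate 1 of the 90 min group. At 90 min, ECM1 had 15.9 ± 5.48 CPM in Abf1 cells and 28.5 ± 1.57 CPM in WT cells (log2 fold change −0.84, SE 0.31, edgeR adjusted p = 0.0269), which was not called.

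**Figure D4:**
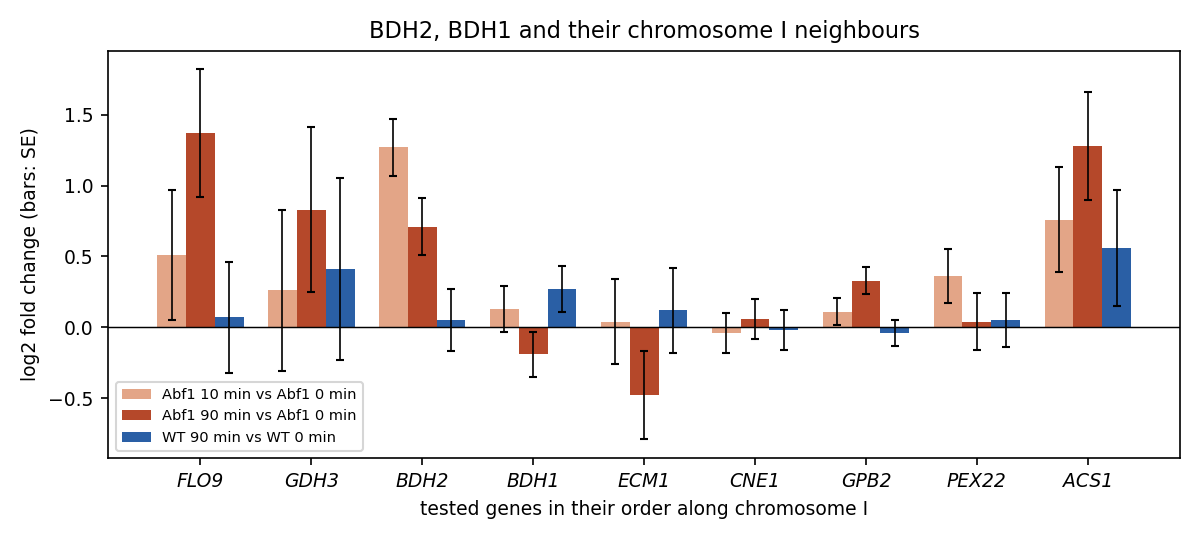
Log2 fold change with SE bars of BDH2, BDH1 and the 7 tested neighbours, in their order along chromosome I, in Abf1 cells at 10 and 90 min against 0 min and in WT cells at 90 min against 0 min. BDH2 was at 1.27 at 10 min, GDH3 at 0.26 and BDH1 at 0.13, and the bar of ACS1 at 90 min was at 1.28.

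Of the other genes around pyruvate, few passed the test at early times. The list held 23 genes from pyruvate kinase through acetoin formation, ethanol and acetate, of which 21 were tested. At 20 min edgeR called 1 of 21, against 9.28% of all features. It was ILV6, the regulatory subunit of acetolactate synthase, which fell to 44.2 ± 9.16 CPM, against 67.2 ± 9.86 CPM at 0 min (log2 fold change −0.61, SE 0.15, edgeR adjusted p = 0.00324). That call was lost when only those 6 libraries were fitted, and also without replicate 1 of the 0 min group or replicate 2 or 3 of the 20 min group (0 of 21 each). At 90 min 2 of 21 were called higher and 1 lower, when 6.26% of all features were called higher and 11.3% lower, and 5 were called with the replicate number as a block. ALD3, a stress-induced aldehyde dehydrogenase gene, had 307 ± 160 CPM in the 90 min group and 81.4 ± 6.42 CPM in the 0 min group (log2 fold change 1.92), and ACS1 has been given above. ACS2, the acetyl-CoA synthetase gene used on glucose, fell to 122 ± 15.8 CPM, against 208 ± 10.3 CPM (log2 fold change −0.78). These 90 min names were taken after their values were seen.

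Early values of the enzymes next to acetoin are given for context, without a call. PDC1, the main pyruvate decarboxylase gene, had 853 ± 135 CPM at 10 min and 1154 ± 73.6 CPM at 0 min. ADH1, the main fermentative alcohol dehydrogenase gene, had 416 ± 67.6 CPM at 10 min and 541 ± 110 CPM at 0 min. ARA1, a reductase gene that also contributes to acetoin reduction, had 219 ± 22.1 CPM at 10 min and 192 ± 23.8 CPM at 0 min. None of them passed the test (edgeR adjusted p = 0.312, 0.26 and 0.516), and all 3 were picked for their place in the pathway.

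No relative in the medium-chain dehydrogenase family was called at 10 min. Of 18 listed relatives 14 were tested, and edgeR called 0 of them at 10 min, with 1 at an unadjusted p under 0.05 and 0 called by DESeq2, while 4.26% of all features were called. Their median log2 fold change was −0.03 at 10 min. At 90 min, when 17.6% of all features were called, edgeR again called 0 of 14, with 3 at an unadjusted p under 0.05, 1 called by DESeq2, 1 with the replicate number as a block and 1 without replicate 2 of the 90 min group. Between Abf1 and WT cells at 90 min, when 14.1% of all features were called lower, 1 of 14 was called lower. It was ADH3, the mitochondrial alcohol dehydrogenase gene, named after its values were seen, with 157 ± 27.7 CPM in Abf1 cells and 254 ± 16.4 CPM in WT cells.

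Genes of pleiotropic drug resistance, a network run by Pdr1 and Pdr3 that pumps foreign compounds out of the cell, were counted because rapamycin is such a compound. All 22 were tested. At 10 min edgeR called 0, with 4 at an unadjusted p under 0.05 and 0 called by DESeq2. The median log2 fold change was 0.16, with 21 of 22 above 0. At that time 4.26% of all features were called in either direction. At 90 min 2 of 22 were called higher, when 6.26% of all features were called higher and 17.6% in either direction, and 4 were called with the replicate number as a block. SNG1, a membrane protein gene, had 222 ± 68.2 CPM at 90 min and 105 ± 20.8 CPM at 0 min, and SNQ2, a transporter gene, had 10114 ± 875 CPM at 90 min and 6231 ± 295 CPM at 0 min. Both were named after their values were seen. Without replicate 1 of the 90 min group 4 were called, and without replicate 2 of it 1 was. In WT cells at 90 against 0 min edgeR and DESeq2 called 0 of 22, with 0 at an unadjusted p under 0.05.

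General stress genes, induced through Msn2 and Msn4 in many kinds of stress, were above 0 as a list at the same early times as BDH2 without any gene passing the test. All 17 had a positive log2 fold change at 5 and at 10 min, with a median of 0.42 at both times. Over all features the median was 0.016 at 5 min and 0.042 at 10 min, and 0.507% and 4.26% were called in either direction. How many of all features were above 0 was not counted. Of the drug resistance genes, 20 of 22 were above 0 at 5 min and 21 of 22 at 10 min. edgeR and DESeq2 called 0 of 17 at both times, with 8 at an unadjusted p under 0.05 at each. The median was 0.16 at 15 min and 0.27 at 20 min, where BDH2 was at 0.87 and 0.85. In the groups of 30, 40, 50, 60, 75 and 90 min edgeR called 2, 4, 5, 8, 6 and 6 of 17 higher and 0 lower, while 1.26%, 1.49%, 2.66%, 2.74%, 4.74% and 6.26% of all features were called higher. HSP12, a membrane stress protein gene, had 99.3 ± 33.8 CPM at 10 min and 45.9 ± 20.5 CPM at 0 min (edgeR adjusted p = 0.051), and 361 ± 113 CPM at 90 min, and was named after its values were seen. In WT cells at 90 against 0 min edgeR and DESeq2 called 0 of 17, with 0 at an unadjusted p under 0.05, and the median was 0.01. Between Abf1 and WT cells at 0 min the stress list already differed, with a median of 0.48 and 15 of 17 above 0. There edgeR called 0 of 17 and DESeq2 1. The part of a general stress change in the BDH2 values was not tested.

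The features whose pattern over the 13 group means (log2 CPM, mean of at least 10 CPM, 5161 features) was most like BDH2 were CIT1 (Pearson r = 0.987), NTH2 (0.979), AGP2 (0.967), NDI1 (0.964) and ATP3 (0.963). The 13 means share libraries, controls and scaling, so these are descriptions. CIT1 encodes mitochondrial citrate synthase, NTH2 a trehalase, NDI1 the internal NADH dehydrogenase and ATP3 a subunit of the mitochondrial ATP synthase. Their changes were smaller than that of BDH2. CIT1 had 426 ± 38.4 CPM in Abf1 cells at 10 min and 337 ± 57.0 CPM at 0 min, and NTH2 had 342 ± 25.9 CPM at 10 min and 271 ± 17.0 CPM at 0 min. Fitted log2 fold changes at 10 min were 0.34 (SE 0.12) for CIT1, 0.34 (SE 0.14) for NTH2, 0.40 (SE 0.14) for NDI1 and 0.27 (SE 0.083) for ATP3, against 1.27 for BDH2. AGP2 was at 0.2 (SE 0.41), with 269 ± 97.7 CPM in Abf1 cells at 10 min and 234 ± 86.9 CPM at 0 min, so its change was smaller than its SE. BDH1 ranked 901 by likeness to BDH2 (r = 0.7).

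The features most like BDH1 were YER079W (r = 0.922), GPH1 (0.902), IML2 (0.901), YPS1 (0.895) and CMK1 (0.882), and BDH2 ranked 242 among them. GPH1 encodes glycogen phosphorylase, YPS1 a cell-surface protease and CMK1 a calmodulin-dependent kinase. GPH1 varied widely within groups, with 263 ± 127 CPM in Abf1 cells at 10 min and 200 ± 123 CPM at 0 min, and it is also 1 of the 17 stress genes.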

How the data were processed

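Newly made RNA was sequenced in 39 libraries. The authors aligned reads to sacCer3 with HISAT2 2.0.5, kept each molecular identifier once, and deposited whole-number counts per feature from featureCounts (Subread 1.6.5), adding sequence runs. Use of strand in counting was not given in the sources used here. A second deposited table, which holds the authors' own fold changes and p-values, was not used. Counts were tested with edgeR 4.0.16 (R 4.3.3; TMM scaling, filterByExpr with a minimum count of 10, robust quasi-likelihood fit of 13 group means, Benjamini-Hochberg adjustment over 5722 features), after a test on simulated data. DESeq2 1.42.0 served as an alternative, beside other scaling, no filter, a replicate block, only the 2 groups compared and each replicate left out. Same-numbered libraries deviated together in 9 of the 10 comparisons with Abf1 0 min (all 3 correlations over 0.1, while at 50 min the lowest was 0.0849). The numbers were therefore taken to pair those libraries, and not those of the comparisons with WT. The fit as reported held no pairing, so its SEs, calls and shares are unpaired. Pairing entered only through the replicate block and the values compared within replicate numbers. At 5 min 29 features were called as reported and 53 with the block. The 2 genes and all lists were chosen with earlier results of these data known. Named were BDH1, BDH2, ABF1, FPR1 and TOR1, the adjacent genes, the 5 features most alike to each member, and per list the 2 highest and 2 lowest called fold changes at 20 min, and any other gene was named after its values were seen or, where stated, for its place in the pathway. TOR1 averaged 889 ± 29.4 CPM in Abf1 and 860 ± 3.56 CPM in WT cells at 0 min. In the shallowest library 3 counts equal 0.857 CPM. Values below about that level cannot be told from 0. Sequences came from RefSeq R64, in which 6041 of 6420 identifiers matched. Python 3.11.15, scipy 1.17.1 and Biopython 1.88 were used.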

Additional observations from a re-analysis of the deposited data

How the results depend on the processing

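Of 328 fold changes and ratios of the pair computed under an alternative, 13 turned in sign, and none of these differences was called. The BDH2 log2 fold change in WT cells at 90 against 0 min turned without WT 90 min replicate 3 (−0.11) and without WT 0 min replicate 3 (−0.02), with −0.11 to 0.17 over all replicates left out. The other 11 were BDH1 values against Abf1 0 min at 10, 15, 20, 60 and 75 min, which turned to between −0.17 and −0.01, each without 1 replicate except −0.01 at 75 min with scaling by library totals only. Leaving out each replicate gave 1.26 to 1.56 for BDH2 between Abf1 and WT cells at 90 min, 1.1 to 1.32 for BDH2 at 10 min against 0 min, and 1.46 to 1.69 for the log2 ratio of the pair between the strains at 90 min. With the replicate block these were 1.38, 1.26 and 1.55, and the BDH2 and BDH1 fold changes in WT cells were 0.07 and 0.27. The block changed no call of either gene in these comparisons. The list counts against Abf1 0 min that follow moved by over 1.5 times (values of the fit as reported in parentheses). With the replicate block, 5 pyruvate genes (3 without it), 1 medium-chain dehydrogenase relative (0) and 4 drug resistance genes (2) were called at 90 min, and 1 stress gene (0) at 20 min. With only the 2 groups compared, 0 pyruvate genes (1) were called at 20 min, and 1 drug resistance gene (2) and 0 neighbours (1) at 90 min. DESeq2 and scaling by library totals each called 1 relative at 90 min. Without 1 replicate, the count was 0 to 1 pyruvate genes at 20 min, and 0 to 1 relatives, 1 to 4 drug resistance genes and 0 to 2 neighbours at 90 min. The cause of these differences was not tested. Depth limits GDH3 and the other neighbours with few counts more than BDH2, which had at least 72 counts in every library, and an early rise within the first 5 min could not be resolved.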
